A study of Rattus rattus with 24 samples.

Results

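The effect of T3 in the presence of quetiapine was compared with the effect of T3 alone after 96 hours in rat oligodendrocyte precursor cells (OPCs). The data were the 12 arrays labelled 4 days, of 24 arrays in the whole series, with 3 replicates in each of 4 groups. The arrays were taken by their labels, although they and the gene lists used below were chosen with earlier results of these data known. All 31042 probe sets that are not array controls were tested. OPCs had been purified from the cortices of early postnatal rat pups with beads that bind A2B5, a surface marker of glial precursors, and expanded with PDGF before differentiation began. One group then received the DMSO vehicle (Control), one T3 at 45 nM, one Quetiapine at 1 μM, and one both compounds at these doses (T3+Quetiapine). All 4 groups shared the same culture medium, which was renewed after 48 hours, and its B27 supplement contains a small amount of T3. Control and Quetiapine were therefore not free of T3, and the T3 effect is that of the T3 added. The series design gives 3 biological replicates that each supplied every condition, and the replicate number was therefore used to pair the arrays. The other 12 arrays hold the same groups at 48 hours.

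T3 is the active thyroid hormone. It enters the nucleus, binds thyroid hormone receptors on DNA and is a classical signal for OPCs to leave the cell cycle and become oligodendrocytes, the cells that make myelin. Quetiapine is an antipsychotic drug that blocks receptors for dopamine, serotonin and other amines, and in this study it was used as a second inducer of differentiation. When an OPC matures it switches on genes for the proteins and lipids of the myelin sheath, for cytoskeletal proteins that shape its processes, and for enzymes particular to mature oligodendrocytes.

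The interaction is the log2 change caused by T3 in the presence of quetiapine less the log2 change caused by T3 in its absence. It is 0 when the fold changes of the single compounds multiply in the combination. A negative value means that the combination lay below the product of the single folds, and a positive value that it lay above. The values are log2 intensities, and a call required an interaction over 1.5-fold with an adjusted p under 0.05. These are cultures measured in bulk, in which fewer cells of a type and less RNA per cell cannot be told apart.

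Most of the called probe sets were those whose level with both compounds fell short of the multiplied single effects, among them genes of myelin and of the maturing oligodendrocyte. The interaction was called below 0 for 66 probe sets, 0.213% of those tested, and above 0 for 9 probe sets, 0.029%. The 66 included Mobp, Mog, Mag and Pllp, which encode myelin proteins, and Gpr37, an orphan receptor of oligodendrocytes, while the 9 included Nt5e, the ecto-5′-nucleotidase that makes adenosine outside the cell, and Plin2, a coat protein of lipid droplets. The median interaction over all probe sets was 0.01. An unadjusted p under 0.05 was found for 2128 probe sets, or 6.86%, of which 1103 lay below 0 and 1025 above. The calls rested on pairing by replicate number, since without the replicate term 9 probe sets were called lower and 1 higher, all of them among the calls made with it. The counts also changed when a replicate was left out, which leaves fewer arrays for the fit. Without replicate 3 no probe set was called in either direction, without replicate 2 there were 8 called lower and none higher, and without replicate 1 there were 97 and 24.

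The probe sets called lower had a common form. All 66 lay above Control with each compound alone, with a median log2 change of 2.13 with T3, 1.84 with Quetiapine and 2.56 with T3+Quetiapine. The single changes and the interaction use the same arrays, so this count is a description and no separate test. The interaction was negative in every one of the 3 replicates for all 66. Over all probe sets, 30.5% had the same sign in all 3 replicates, in either direction. The 66 were called from these replicates, so their agreement is no separate test. The combination still had the highest group mean for 58 of them, and for 25 its 3 arrays lay above every array of the other groups. The change with both compounds was a median of 64.3% of the summed single log2 changes, with a range from −33.8 to 79.6%. Of the 66 probe sets, 53 carried 1 gene symbol, for 47 genes, and 14 of these genes belong to the lists of myelin, galactolipid, mature oligodendrocyte or lineage genes. In this order the lists hold 15, 9, 23 and 20 measured genes, of 14217 genes with 1 symbol. Tspan2, 1 of the 14, was called by a probe set other than the one that represents it in its list.

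**Figure D1:**
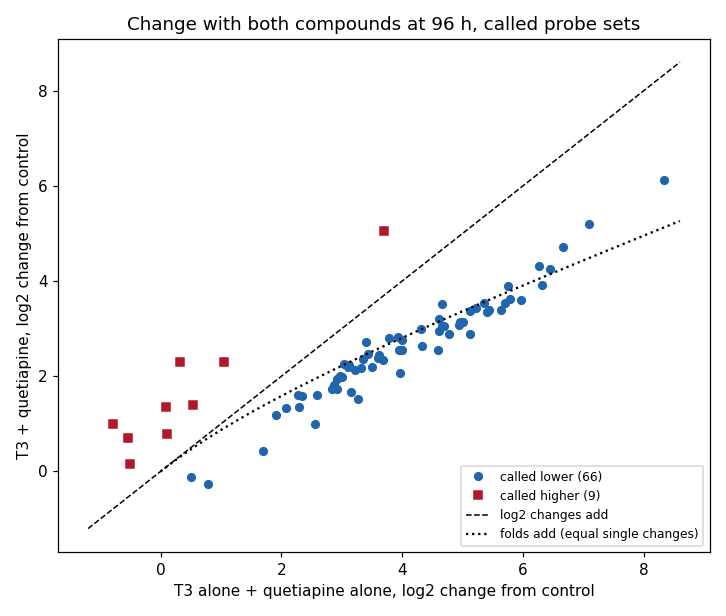
The log2 change from Control with both compounds (vertical axis) is plotted against the sum of the log2 changes with each compound alone (horizontal axis) for the 66 probe sets called lower (circles) and the 9 called higher (squares), the dashed line marking summed log2 changes and the dotted line added folds for equal single changes. Both axes use the same Control arrays. The circles lie below the dashed line and most of them near the dotted line, and the squares lie above the dashed line.

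Gpr37 had the largest negative interaction of any probe set. Its log2 values were 8.05, 8.43 and 8.55 in Control, 10.99, 11.69 and 12.03 in T3, 11.08, 11.42 and 11.83 in Quetiapine, and 11.69, 12.43 and 12.64 in T3+Quetiapine. The single-compound arrays all stood well above Control and overlapped with each other, and the combination overlapped with both of them but was the highest within every replicate. T3 gave 9.34-fold and Quetiapine 8.57-fold the Control level. The log2 change with both was 3.91, against 6.32 for the sum of the single log2 changes. The interaction was −2.41 ± 0.15 (SE, n = 3 arrays per group; adjusted p = 0.000231). T3 raised the level 1.75-fold when it was added to quetiapine (adjusted p = 0.000822).

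Mobp, the myelin-associated oligodendrocyte basic protein, behaved alike. The 3 Control arrays read 9.22, 10.76 and 9.93 on the log2 scale, those with T3 12.30, 13.33 and 13.38, those with Quetiapine 12.25, 13.32 and 13.15, and those with both 12.92, 13.90 and 13.89. Control was lowest and the groups with single compounds overlapped almost completely, while replicate 1 of the combination lay within their range. The interaction was −2.36 ± 0.20 with an adjusted p of 0.000859, and all 3 Mobp probe sets were called lower, at −2.36 to −2.06. The top value of an array lay between 14.12 and 14.39, not far above these Mobp levels. Whether the upper end of the array's range bears on the Mobp interaction was not tested.

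Mog encodes a glycoprotein of the outer surface of myelin. It read 7.05, 7.83 and 7.60 in Control, 10.72, 11.51 and 11.81 in T3, 9.57, 10.65 and 10.72 in Quetiapine, and 11.65, 12.49 and 12.46 in T3+Quetiapine. Within every replicate the order was Control, Quetiapine, T3 and combination. The level with both compounds was 26.1-fold that of Control, between the 20.5-fold of added folds and the 102-fold of multiplied folds, and the interaction was −1.96 ± 0.16 with an adjusted p of 0.000674. Mag, an adhesion protein of the myelin layer next to the axon, reached 2.69-fold with T3, 2.73-fold with Quetiapine and 3.40-fold with both, with an interaction of −1.11 ± 0.11 and an adjusted p of 0.00407. Pllp, or plasmolipin, a membrane protein of myelin, had an interaction of −1.33 ± 0.15 and an adjusted p of 0.00547.

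The leading genes also included Pls1, Myo1d, Ppp1r14a, Septin4 and Cdc42ep2. Pls1, an actin-bundling plastin, had an interaction of −2.24 ± 0.29. Myo1d, a single-headed myosin, had −2.15 ± 0.30, although its other probe set read 0.04. Ppp1r14a, an inhibitor of myosin phosphatase, had −1.89 ± 0.28, Septin4, a filament-forming GTPase, −1.88 ± 0.13, and Cdc42ep2, an effector of the GTPase Cdc42, −1.85 ± 0.26. Their adjusted p values were 0.0135, 0.0218, 0.0299, 0.000264 and 0.0207 in this order. The large single effects of Ppp1r14a, 15.5-fold with T3 and 8.85-fold with Quetiapine, still gave 37.0-fold together, and all 3 of its combination arrays, at 10.56, 11.63 and 11.67, exceeded every other array.

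Ptgds, Car14, Mcam, Deptor, Kndc1 and Plekhh1 completed the leading genes apart from Cpeb1. Ptgds, a prostaglandin D synthase, had an interaction of −1.88 ± 0.23, Car14, a membrane carbonic anhydrase, −1.83 ± 0.22, Mcam, a cell adhesion molecule of the immunoglobulin family, −1.79 ± 0.13, and Deptor, an inhibitor of mTOR, −1.70 ± 0.12. The adjusted p values were 0.0102, 0.00817, 0.000301 and 0.000264. Both probe sets of Mcam and of Deptor were called. Kndc1 and Plekhh1 had −2.17 ± 0.18 and −2.05 ± 0.31, with adjusted p values of 0.000674 and 0.0299. The second probe sets of Car14 and Plekhh1 read −0.98 and −1.42 and were not called. Of the lineage transcription factors, Zfp536 had −1.61 ± 0.21 and Nkx6-2, a homeobox factor of maturing oligodendrocytes, −1.41 ± 0.17, with adjusted p values of 0.0151 and 0.00847. Of the 4 Zfp536 probe sets 1 was called, and the highest of the others read −0.00.

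Cpeb1 differed in form from these genes. It binds an element in the tail of messenger RNAs that governs their polyadenylation and translation. Its values were 5.78, 6.10 and 6.31 in Control, 7.77, 8.64 and 8.92 in T3, 5.92, 7.35 and 7.62 in Quetiapine, and 6.99, 7.78 and 7.99 in T3+Quetiapine. Here the combination lay below T3 in every replicate. Quetiapine added to T3 lowered the level to 0.550-fold with an adjusted p of 0.0130, and the interaction was −1.76 ± 0.25 with an adjusted p of 0.0249. The interaction lost its call in 13 of 21 alternative fits, among them 11 of the 15 that left out an array or replicate. Ptgds also had a lower mean in the combination, 7.43-fold over Control against 8.62-fold in T3. The ratio was 0.861 (adjusted p = 0.462), so a lowering by quetiapine was not shown for Ptgds. Unlike for Cpeb1, the combination did not lie below T3 in every replicate.

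**Figure D2:**
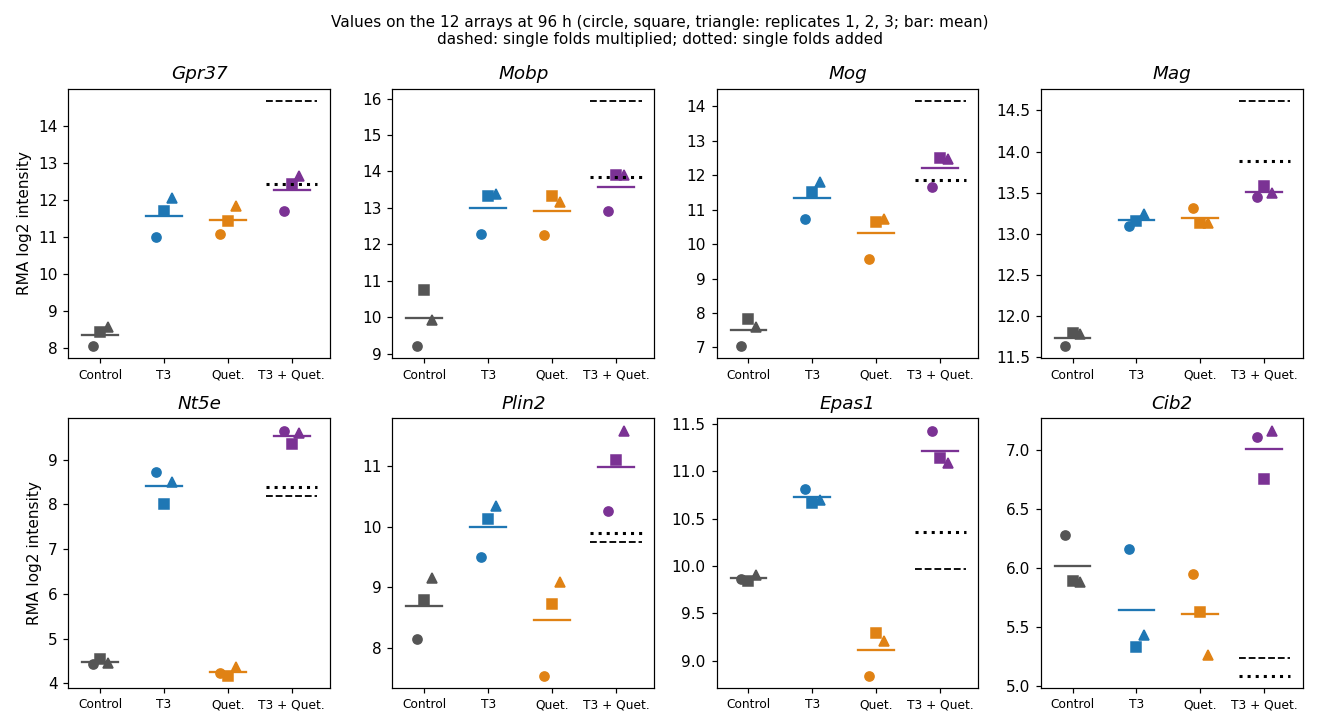
Log2 intensity (vertical axes) on each of the 12 arrays is shown by group for 4 genes called lower (Gpr37, Mobp, Mog and Mag) and 4 called higher (Nt5e, Plin2, Epas1 and Cib2), with a bar at each group mean and, over the combination, a dashed line for multiplied and a dotted line for added single folds. The upper genes lie below the dashed line, and the lower genes lie above both lines.

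Adding T3 to quetiapine raised 34 of the 66 probe sets by the same call rule, which it did for 3.23% of all probe sets tested, and adding quetiapine to T3 raised 24, against 1.6% of all. Both additions raised 16 and neither raised 24. The first addition lowered 1 of the 66 and the second lowered 3. Gpr37, Mog, Ppp1r14a and Cdc42ep2 were among those raised by both. These tests share arrays with the interaction, and the counts describe its members.

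The 9 probe sets called higher behaved otherwise. For 7 of them the change with Quetiapine alone lay below 0, counted by sign without a test, and for 8 the combination had the highest group mean. T3 added to quetiapine raised all 9, against 3.23% of all probe sets tested. Quetiapine added to T3 raised 7, against 1.6% of all. These values share arrays with the interaction, so the counts describe its members and are no separate test. The interactions of the 9 lay between 0.67 and 1.98.

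Nt5e, from the list of thyroid hormone responsive genes, had the largest change with both compounds among the genes called higher. It read 4.44, 4.54 and 4.45 in Control, 8.72, 8.01 and 8.50 in T3, 4.23, 4.17 and 4.35 in Quetiapine, and 9.65, 9.36 and 9.58 in T3+Quetiapine. The 4 groups did not overlap, with Quetiapine the lowest and the combination the highest. T3 gave 15.3-fold of the Control level alone and 38.8-fold of the Quetiapine level when added to it, and quetiapine added to T3 gave 2.18-fold with an adjusted p of 0.000707. The interaction was 1.35 ± 0.18 with an adjusted p of 0.0186. The Control and Quetiapine values lay below the median of every array, between 6.44 and 6.51, and were not shown to be above background, so the folds of Nt5e over these groups are folds of the measured intensities. The same holds for Cib2 and St8sia3 in every group but the combination, and for Cpeb1 in Control.

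Plin2 had log2 values of 8.14, 8.79 and 9.15 in Control, 9.50, 10.13 and 10.35 in T3, 7.54, 8.73 and 9.08 in Quetiapine, and 10.26, 11.10 and 11.59 in T3+Quetiapine. Control and Quetiapine overlapped, and the combination was highest within every replicate. The combination was at 4.89-fold of Control, with 2.46-fold for T3 and 0.845-fold for Quetiapine, and the interaction was 1.23 ± 0.17 (adjusted p = 0.0207). Its second probe set read 0.57 and was not called.

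Epas1 encodes HIF-2α, a transcription factor of the response to low oxygen. Its arrays read 9.87, 9.84 and 9.91 in Control, 10.82, 10.66 and 10.70 in T3, 8.84, 9.29 and 9.21 in Quetiapine, and 11.43, 11.14 and 11.09 in T3+Quetiapine. No 2 groups overlapped, Quetiapine lying lowest and the combination highest. The interaction was 1.25 ± 0.18 with an adjusted p of 0.0242. The second Epas1 probe set read 0.73 and was not called.

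Cib2, a calcium- and integrin-binding protein, lay at 6.28, 5.89 and 5.89 in Control, 6.17, 5.33 and 5.43 in T3, 5.95, 5.63 and 5.26 in Quetiapine, and 7.11, 6.75 and 7.17 in T3+Quetiapine. The first 3 groups overlapped, and the combination stood above all of them. With both compounds the level was 1.99-fold that of Control, although each alone gave 0.771-fold and 0.754-fold, and the interaction was 1.77 ± 0.21 with an adjusted p of 0.00847. Sh3bp5 showed the same order of group means, with an interaction of 1.24 ± 0.17 (adjusted p = 0.0196). St8sia3, a sialyltransferase of the Golgi, reached 2.64-fold with both compounds from 1.12-fold and 1.30-fold, and its interaction was 0.86 ± 0.14 (adjusted p = 0.0431). Dusp14, a phosphatase that acts on MAP kinases, had 0.68 ± 0.11 (adjusted p = 0.0427), and Epha3, a receptor for ephrins, 0.67 ± 0.11 (adjusted p = 0.0465). Of the 3 Epha3 probe sets 1 was called, and the lowest of the others read 0.26. The largest of the positive called interactions, 1.98 with an adjusted p of 0.00547, belonged to a probe set that has no symbol in the annotation used.

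**Figure D3:**
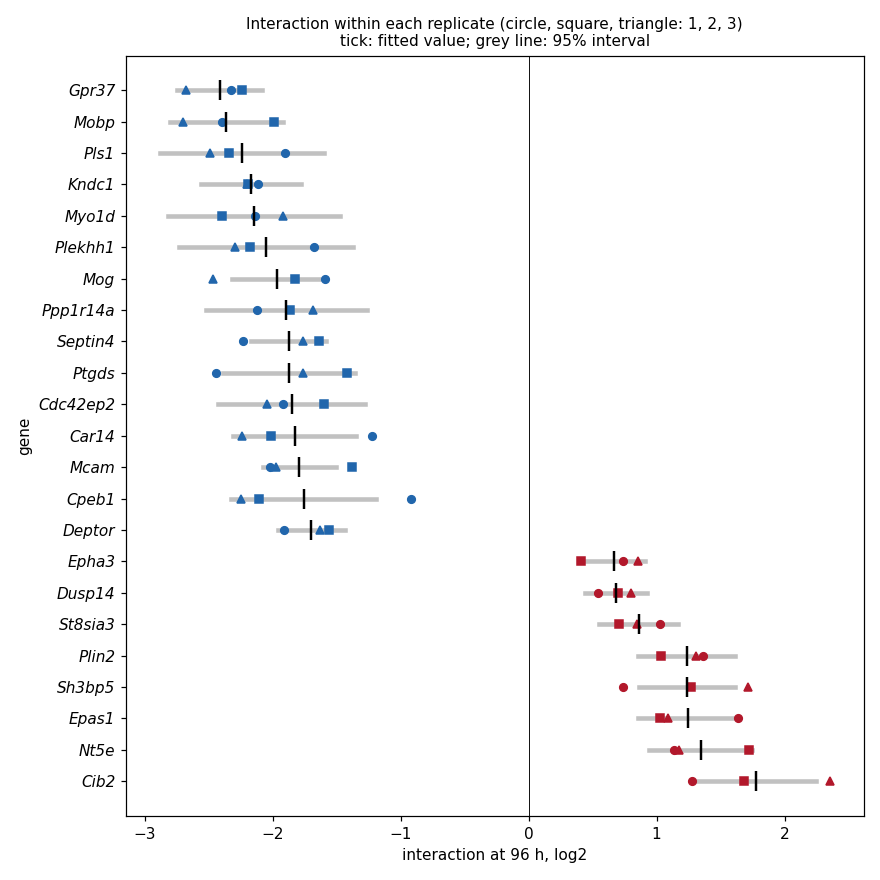
The interaction in log2 units (horizontal axis) is shown for the 15 genes with the largest negative and the 8 genes with a positive called interaction, with 1 symbol for each replicate, a tick for the fitted value and a grey line for its 95% interval. A gene was shown only if its 3 symbols lie on the same side of 0. The symbols run from −2.33, −2.24 and −2.68 for Gpr37 to 1.28, 1.69 and 2.36 for Cib2.

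Multiplication of folds is a demanding reference for genes with large single effects, so the combination was also compared with added folds. Added folds are the T3 fold plus the Quetiapine fold minus 1, the excess is the fold of the combination minus that value, and a call needed only an adjusted p under 0.05. None of the 66 probe sets called lower differed from added folds by this test, the lowest adjusted p being 0.0543, although 39 of them had an unadjusted p under 0.05. The observed fold was a median of 0.850 of the added folds, with a range from 0.472 to 1.58, and 55 of the 66 lay below and 11 above. For Gpr37 the excess was −1.90 (95% interval −4.18 to 0.388) against 16.9-fold for added folds. For Mog it was 5.62 (95% interval 1.81 to 9.44) with an adjusted p of 0.350, and for Mag −1.02 (95% interval −1.51 to −0.531) with an adjusted p of 0.164.

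Across all probe sets 39 were called above added folds, 0.126%, and 0% below, with an unadjusted p under 0.05 for 1966 above and 626 below. Of the 39, 7 were also called higher on the log2 scale, among them Nt5e, Cib2, Sh3bp5, Plin2, St8sia3 and Dusp14. Nt5e exceeded added folds by 18.1 (95% interval 12.4 to 23.7; adjusted p = 0.0364), measured over its dim Control level. Both single changes were above 0 for 11 of the 39 and below 0 for 25. For 17 the added folds came to 0 or less, a level no intensity can reach, so a positive excess there follows from the measure itself. Tagln, an actin-binding protein of contractile cells, and Myl9, a myosin light chain, belong to these 17. The count of 39 was 1 without the replicate term and lay between 0 and 124 when an array was left out.

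Tmem178a was chosen after its values were seen, as the gene with the second largest excess among those with a symbol. It read 8.14, 8.13 and 8.44 in Control, 10.80, 10.98 and 11.00 in T3, 8.72, 8.87 and 8.68 in Quetiapine, and 11.74, 12.26 and 12.10 in T3+Quetiapine. The groups did not overlap and the combination stood highest. Both compounds gave 13.9-fold of Control against 6.88-fold for added folds, and the 95% interval of the excess was 5.06 to 8.95 (adjusted p = 0.0249), while its log2 interaction of 0.59 had an adjusted p of 0.305.

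The 29 lists hold 422 genes, 387 of them measured, and 14 of the measured genes were called lower and 1 higher. Each gene is represented by 1 probe set, and calls are those of the fit over all probe sets, where 0.213% were called lower and 0.029% higher. Over all genes with 1 symbol, 45.0% of the interactions were negative.

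Among myelin structural proteins 4 of 15 measured genes were called lower (Mobp, Mog, Pllp and Mag), 26.7% beside 0.213% of all probe sets, none was called higher and all 15 interactions were negative, with a median of −0.77 beside 0.02 over all genes with 1 symbol. Ermn, a cytoskeletal protein of the myelin sheath, had a larger value than any other member, −2.41 ± 0.53, and was not called (adjusted p = 0.172). Mal had −1.50 ± 0.82 with −0.43, −1.64 and −2.43 in the 3 replicates. Cnp, an enzyme of the myelin cytoplasm, had −0.13 ± 0.08, and Cldn11, the tight junction protein of myelin, −0.34 ± 0.10. Of the 2 Tspan2 probe sets 1 was called lower, but not the one that represents the gene here.

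Mbp, the myelin basic protein, had an interaction of −0.27 ± 0.09 with an adjusted p of 0.560. The arrays read 13.91, 13.94 and 13.99 in Control, 14.23, 14.26 and 14.30 in T3, 14.39, 14.25 and 14.23 in Quetiapine, and 14.35, 14.34 and 14.33 in T3+Quetiapine. Control lay below every treated array, and the treated groups overlapped between 14.23 and 14.39. This probe set was the highest of all on 9 of the 12 arrays, where the top value of an array lay between 14.12 and 14.39. Whether the upper end of the array's range bears on its interaction was not tested. The other Mbp probe sets read −0.52 and −0.07 and were not called either.

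The mature oligodendrocyte list had 7 of 23 measured genes called lower, or 30.4% beside 0.213% of all probe sets, 21 negative values and a median of −0.86. The 7 were Gpr37, Myo1d, Ppp1r14a, Cdc42ep2, Aspa, Adamts4 and Lgi3. Of the 3 Lgi3 probe sets 2 were called, and the remaining one read −0.04. Aspa, which splits N-acetylaspartate, had −1.41 ± 0.14 and Adamts4, a secreted metalloproteinase, −0.99 ± 0.12. Ndrg1 had −1.92 ± 0.45 without a call. Car2, the cytosolic carbonic anhydrase, had 0.02 ± 0.50, with replicates at 1.63, 0.01 and −1.57. None of the 9 genes of galactolipid and sphingolipid synthesis was called, all 9 values were negative and the median was −0.31. Ugt8, which makes galactosylceramide, had −0.52 ± 0.13 (adjusted p = 0.258).

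Lineage transcription factors had 2 of 20 called lower, the Zfp536 and Nkx6-2 already given, or 10% beside 0.213%, and a median of −0.13. Myrf, the regulator of myelin gene expression, had −0.30 ± 0.10, Sox10 −0.21 ± 0.10 and Olig1 −0.03 ± 0.12, none of them called. No gene of the 13 precursor genes was called, and their median was −0.03.

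**Figure D4:**
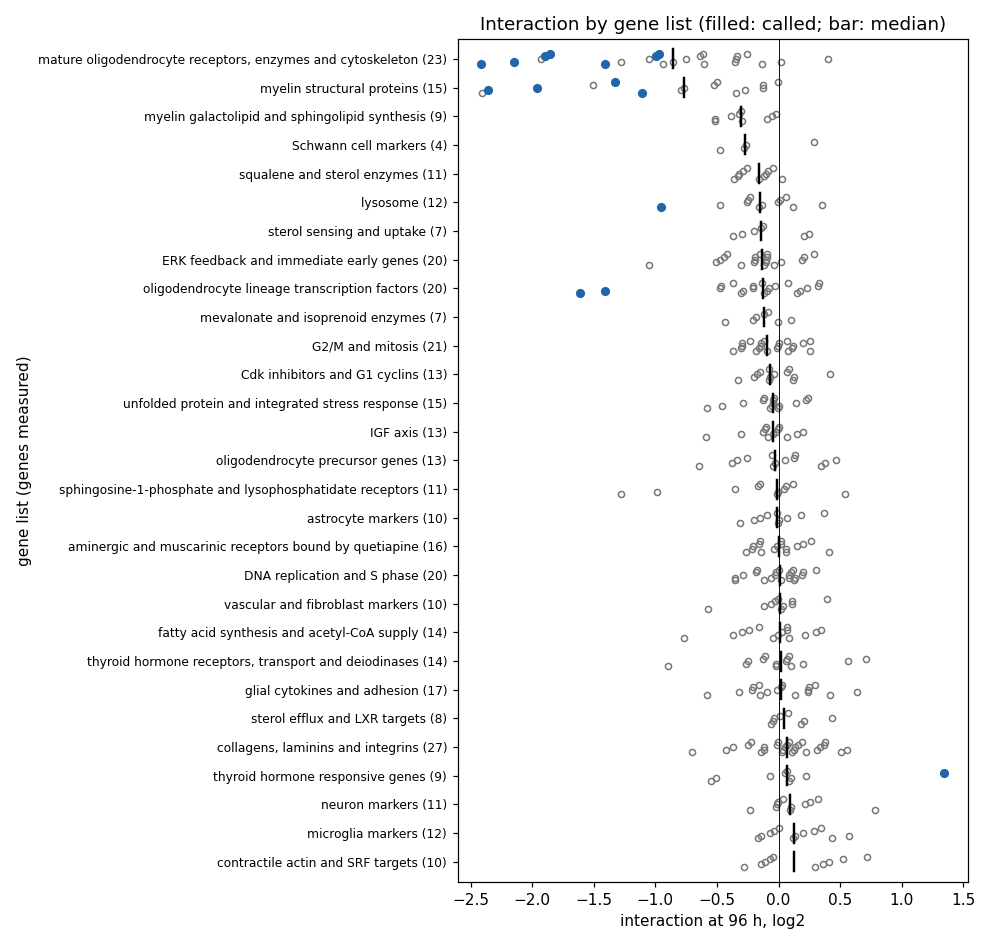
Each point is 1 measured gene of a list, placed by its interaction at 96 hours in log2 units (horizontal axis), with filled points for called genes and a bar at the median of the list. The called genes sit in the myelin, mature oligodendrocyte, lineage and lysosome lists on the negative side and in the list of thyroid hormone responsive genes on the positive side.

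Of 9 genes listed as responsive to thyroid hormone, Nt5e alone was called, and the median was 0.07. Klf9, a transcription factor induced by thyroid hormone, had an interaction of 0.23 (95% interval −0.26 to 0.72), with log2 changes of 1.80 in T3, −0.33 in Quetiapine and 1.70 in T3+Quetiapine. Dbp, a transcription factor of circadian output, had 0.10 (95% interval −0.15 to 0.35). Hr, a corepressor of nuclear receptors, had −0.51 (95% interval −0.73 to −0.29) with an adjusted p of 0.103. The list of receptors, transporters and deiodinases of thyroid hormone had no call among 14 genes and a median of 0.02.

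Sterol genes showed no called interaction. The median was −0.12 over 7 mevalonate and isoprenoid enzymes and −0.16 over 11 squalene and sterol enzymes, with 6 and 10 negative values. Cyp51, which removes a methyl group from lanosterol, had log2 changes of 0.61 in T3, 1.23 in Quetiapine and 1.52 in T3+Quetiapine and an interaction of −0.32 (95% interval −0.56 to −0.08; adjusted p = 0.544). Fdft1, or squalene synthase, had −0.09 (95% interval −0.40 to 0.23), and Sqle, the squalene epoxidase, −0.05 (95% interval −0.35 to 0.25). Of 14 genes for fatty acid synthesis none was called, and Elovl1, an elongase of long-chain fatty acids, came nearest at −0.77 ± 0.14 (adjusted p = 0.0654).

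Cell cycle genes had no calls either, with medians of 0.01 over 20 genes of DNA replication and −0.10 over 21 of mitosis. The 3 replicates differed here. The mean log2 level of the mitosis list had interactions of 0.26, 0.19 and −0.63 in replicates 1, 2 and 3. Cdkn1a, the inhibitor of cyclin-dependent kinases known as p21, had 0.42 (95% interval −0.17 to 1.01). In the lysosome list Ctsl, the protease cathepsin L, was called lower at −0.96 ± 0.09 (adjusted p = 0.00307), 1 of 12 genes or 8.33% beside 0.213%. The second Ctsl probe set read −0.88 and was not called. No member of the lists of sterol uptake, sterol efflux, kinase inhibitors, ERK feedback, stress response, amine receptors, cytokines, lipid receptors, matrix, contractile or IGF genes was called.

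Markers of other cell types were checked because the cultures could hold such cells. None of the 10 astrocyte, 11 neuron, 12 microglia, 10 vascular and fibroblast or 4 Schwann cell markers measured was called. The mean log2 level of the astrocyte list ranged from 10.37 to 10.86 in Control, 10.03 to 10.73 in T3, 9.58 to 10.42 in Quetiapine and 9.45 to 10.07 in T3+Quetiapine. Its interaction had a mean of −0.01 (SD 0.22, n = 3 replicates), against −0.94 (SD 0.26, n = 3) for the myelin list. The means were 0.14 (SD 0.15) for the neuron, 0.14 (SD 0.26) for the microglia and −0.01 (SD 0.15) for the vascular and fibroblast list. The Schwann cell list, with 4 measured genes, had a mean of −0.18 (SD 0.13), negative in all 3 replicates like the myelin list, and its mean level ranged from 5.71 to 5.87 in Control, 6.11 to 6.18 in T3, 5.85 to 6.61 in Quetiapine and 5.93 to 6.76 in T3+Quetiapine. The part of these markers in the result was not tested. The differences between 3′ and 5′ control probe sets had interactions of 0.02 (SD 0.09) for actin and −0.06 (SD 0.03) for GAPDH. Array medians lay between 6.44 and 6.51, and arrays of the same group correlated with Pearson's r of 0.986 to 0.996 over all probe sets, a description only since genes do not serve as replicates.

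At 48 hours the same contrast gave no call, 0% of the probe sets, in arrays that belong to the same replicates but are separate samples. Limma gave 1075 probe sets an unadjusted p under 0.05, or 3.46%, and the lowest adjusted p was 1.00. Of the 66 probe sets called lower at 96 hours, 63 were negative at 48 hours, with a median of −0.29 against −1.37. The share of all probe sets that were negative at 48 hours was not counted, so the 63 are a description. The single changes of the 66 were smaller at that time too, with medians of 0.82 in T3 and 0.32 in Quetiapine. Gpr37 read 6.15, 6.06 and 6.94 in Control at 48 hours, 6.80, 7.14 and 8.96 in T3, 6.65, 6.67 and 8.79 in Quetiapine, and 6.81, 7.26 and 9.44 in T3+Quetiapine. Replicate 3 was the highest of each group, and the interaction was −0.79 ± 0.38. For Mobp it was −0.54 ± 0.55.

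Among the 9 with a positive call at 96 hours, 6 were also above 0 at 48 hours. The share of all probe sets above 0 at that time was not counted either. Plin2 had an interaction of 1.25 ± 0.19 at 48 hours, and the difference between the times was −0.01. The values for Nt5e were 0.80 ± 0.41 and 1.35 ± 0.18. Cib2 had 0.15 ± 0.09 at 48 hours, and its difference of 1.62 was not called (adjusted p = 0.0780). The test of the difference between the times called 1 probe set, or 0.00322%, which was the one without a symbol described above, while 1040 had an unadjusted p under 0.05. Among the 66, the unadjusted p was under 0.05 for 59 and none was called. The 66 were chosen by their value at 96 hours, which is part of this difference. The count of 59 is therefore no separate test.

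**Figure D5:**
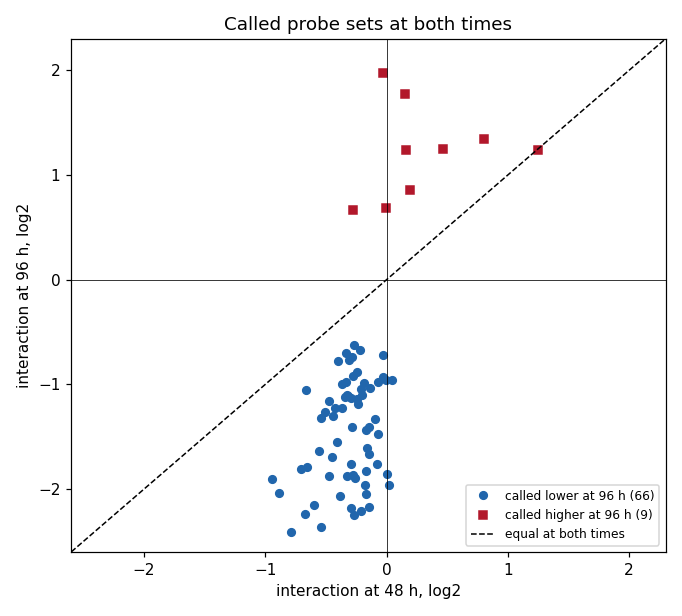
The interaction at 96 hours (vertical axis) is plotted against that at 48 hours (horizontal axis), both in log2 units, for the 66 probe sets called lower (circles) and the 9 called higher (squares) at 96 hours, with a dashed line where they are equal. At 48 hours the circles lie between −0.95 and 0.04, with a median of −0.29, and Plin2 is the square that lies on the dashed line.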

How the data were processed

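RNA of rat OPC cultures was hybridised to 1-colour Affymetrix arrays. The deposited log2 values had been made by the authors with RMA, which corrects background, equalises the distributions of the arrays by quantiles and summarises each probe set; version and genome build are not given in the sources used here. They were used as they stand, without raw signals. The table has 31099 rows. After 57 control probe sets were removed, 31042 were tested, of which 20826 carried 1 symbol (14217 genes), 436 several and 9780 none, from the array's annotation. Only probe sets with 1 symbol entered lists and names. The number of arrays, not read depth, limits the precision.

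Limma 3.58.1 in R 4.3.3 was fitted to the 12 arrays at 96 hours with 4 group means and the replicate as a fixed block, to the 12 arrays at 48 hours likewise, and to all 24 arrays for the difference between the times. P values were adjusted by the method of Benjamini and Hochberg over all probe sets. The excess over added folds was tested by the delta method with limma's errors. The scripts were tested on simulated data.

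The deposited design says that each replicate supplied all conditions. At 96 hours, the departures of arrays from their group means were checked for correlation, with r of 0.309 to 0.690 for the 18 pairs with the same number and −0.583 to 0.243 for the 36 other pairs. Departures within a group cancel out, so a positive r for the same number pulls the other pairs towards negative r. The ranges are therefore not independent.

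Named genes were up to 15 with the largest called interaction each way (same sign in all 3 replicates), genes the study names for its arrays or qPCR, and, for each list, up to 4 called members or else the 2 with the largest interaction. For a gene in a list the probe set with the highest mean stood. The members and lists were chosen with earlier results of these data known. Alternatives were the replicate term, centring, a filter on dim probe sets, the fold limit, an intensity trend, a joint fit, and leaving out arrays or replicates.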

Additional observations from a re-analysis of the deposited data

Results flagged for a closer look

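A probe set without a symbol in the annotation used was singled out because its interaction differed between the times by the test of the difference itself. Its interaction was 1.98 at 96 hours and −0.03 at 48 hours, a difference of 2.01 with limma's adjusted p of 0.0211. At 96 hours it read 6.12, 7.12 and 6.40 in T3+Quetiapine and between 3.94 and 4.64 on the other 9 arrays, and at 48 hours it read 4.29 to 4.75 on all 12 arrays. Apart from the 7.12, these values lay below the median of every array and were not shown to be above background. The difference was above 0 in 3 of 3 replicates, the same ones that the test used. The count of 1 call higher became 0 without the replicate block and 0 after a filter on dim probe sets. It lay between 0 and 4 when an array or replicate was left out.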

How the results depend on the processing

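Without the replicate block, in spite of the pairing by replicate number, 9 probe sets were called lower and 1 higher at 96 hours, 1 lay above added folds, and the difference between the times had 0 calls higher. The list counts changed as well, with 0 to 1 genes called lower in a list. One fit over both times gave 111 lower and 22 higher, 124 above and 6 below added folds. An intensity trend in the variance gave 14 higher, a random block 18 above added folds, and a filter on dim probe sets 1 below added folds and 0 in the difference between the times. Centring and the absence of a fold limit moved no count by over 1.5 times. At 48 hours every alternative gave 0 calls.

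Leaving out an array or a replicate gave 0 to 97 called lower and 0 to 26 called higher, 0 to 124 above and 0 to 16 below added folds, and 0 to 4 higher and 0 to 19 lower in the difference between the times. The count of 66 became 28, 35 and 35 without T3 replicate 3, 1 and 2, 30 without Control replicate 2, 32 and 41 without Quetiapine replicates 2 and 3, and 43 without T3+Quetiapine replicate 3. The count of 9 became 26 and 17 without replicate 1 of Control and of T3+Quetiapine, 5 without T3 or Quetiapine replicate 2, 4 without Quetiapine replicate 1 or 3 or Control replicate 2 or 3, 3 without T3+Quetiapine replicate 3 and 2 without T3 replicate 3. The cause was not tested.

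For the 28 called named genes, 395 of 599 values under an alternative kept the call, 204 lost it and 0 changed sign. Without the block 5 kept it, and Mobp and Mog were among those that lost it (limma's adjusted p = 0.751 and 0.767). The call was lost under 18 of 21 alternatives for Epha3, 17 of 21 for Dusp14, 14 of 21 for Plekhh1 and 14 of 20 for St8sia3. It was lost under 13 of 21 for Cpeb1 and under 1 of 21 for Mcam. Of the 58 named genes without a call, 5 of 1266 values gained one. No detection calls were used here, so dim values are not shown to lie above background.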
